A study of Mus musculus with 8 samples.

Results

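Endothelial cells without the Ly6a-GFP reporter were set against the 3 other cell groups of a sort of embryonic mouse arteries at E10.5 (day of embryonic development). All groups came from 1 pool of 100 Tg(Ly6a-GFP) embryos, in which the Ly6a promoter drives green fluorescent protein (GFP), from Tg(Ly6a-GFP) males crossed to C57BL/6 x 129S1/SVImJ F1 females. The aorta-gonad-mesonephros region was dissected along with the umbilical and vitelline arteries, and cells carrying CD31, VE-cadherin and ESAM were sorted by Kit and by GFP. GFP- endothelium (Kit-, 300000 cells) was compared with GFP+ endothelium (Kit-, 70000 cells), GFP- hematopoietic cluster cells (Kit+, 130000 cells) and GFP+ hematopoietic cluster cells (Kit+, 30000 cells), here called GFP- and GFP+ clusters. The RNA of each group was divided into 2 fractions, which were amplified, labelled with Cy3 and hybridised to 1-colour Agilent expression arrays, giving 2 arrays for each of the 4 groups. The array pairs therefore hold divided RNA of the same pool, and every p-value below measures the technical spread between arrays and not the spread between litters or sorts. A gene was taken when its lower GFP- endothelium array lay above all 6 other arrays, or its higher one below all 6. Of 19501 genes tested, 4288 lay above (22%) and 2327 below (11.9%), 6615 in all.

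In the embryonic aorta, some endothelial cells of the arterial floor turn on Runx1 and Gfi1, round up and bud into the lumen as hematopoietic clusters, from which the first hematopoietic stem cells form. Ly6a encodes Sca-1, a surface antigen of stem cells, and the reporter marks part of both the endothelium and the clusters. Endothelium without the reporter is the vessel lining that is not marked in this way. Megakaryocytes, the cells that shed platelets, first form in the yolk sac, and they share Runx1, Gata1 and CD41 with other blood progenitors. Platelets hold chemokines in their alpha granules and carry the collagen receptor glycoprotein VI and the von Willebrand factor receptor, the glycoprotein Ib-IX-V complex.

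Levels are log2 signal minus the array's own 75th percentile, so a level of 0 is that percentile, and differences are GFP- endothelium minus the other group on the log2 scale. A value in parentheses after a gene is its difference from the mean of the other 3 groups unless another group is named. The 75th percentile of signal ran from 708 to 1477 over the 8 arrays, 54.6% to 63.7% of probes were well above background and no probe was saturated. The log2 difference between the arrays of a pair had an SD of 0.217 in GFP- endothelium and of 0.244 to 0.319 in the other groups. The sort genes, which were selected on and are no finding, followed the sort, and the Ly6a level was -3.40 and -3.95 in GFP- endothelium, against 0.37 and 0.42 in GFP+ endothelium, -3.95 and -3.87 in GFP- clusters and -0.48 and -0.57 in GFP+ clusters. Kit, sorted against in both endothelial groups, was at 1.32 and 1.35 in GFP- endothelium, against 1.28 and 1.36 in GFP+ endothelium, 1.94 and 2.02 in GFP- clusters and 2.87 and 2.88 in GFP+ clusters, and the endothelial groups did not differ beyond the spread in Kit (0.01, adjusted p = 0.826). All 7 endothelial markers (Cdh5, Pecam1, Esam, Kdr, Tek, Tie1 and Emcn) were above background on every array. Their summed signal in multiples of the 75th percentile was 115 and 109 in GFP- endothelium, 106 and 107 in GFP+ endothelium, 95.4 and 96.6 in GFP- clusters and 79 and 76.9 in GFP+ clusters.

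In limma's fit over the 8 arrays, 5569 genes (28.6%) were higher and 3464 (17.8%) lower in GFP- endothelium than in the mean of the other 3 groups, at a Benjamini-Hochberg adjusted p under 0.05. In either direction 9033 genes (46.3%) passed, and 5924 and 5839 without the first and without the second GFP- endothelium array. Membership rests on the same 8 arrays as that fit, so nothing is read from the 3940 of 4288 and 2125 of 2327 members that passed it. Among called genes 61.7% were higher, and 53.3% with quantile normalization. The median difference over all genes was 0.070 under 75th-percentile scaling and 0.033 under quantile scaling. Alone, GFP+ endothelium gave 6508 genes higher and 3543 lower in GFP- endothelium (33.4% and 18.2%; 64.7% of calls higher, 51.7% with quantile normalization, which moved the all-gene median to 0.039 against 0.128). GFP- clusters gave 2431 and 2319 (12.5% and 11.9%) and GFP+ clusters 6128 and 3739 (31.4% and 19.2%), or 51.5%, 24.4% and 50.6% of genes called in the 3 comparisons in either direction. The count against GFP- clusters moved with single arrays: of the 4750 genes called, 51.2% were higher, whereas with 1 array left out 1605 to 4212 were called and 38.5% to 49.8% of them were higher. It was 2012 and 1964 without the first and the second GFP- endothelium array, and 1653 and 1605 without the first and the second GFP- cluster array. Differences among members were mostly small. The median was 0.34 among those above, of which 174 reached a 2-fold difference, and -0.39 among those below, of which 358 did. Genes at the lower end went further: 105 were called and at least 2-fold lower against each other group alone, while 16 were called and at least 2-fold higher against each. Of these, 59 and 10 were well above background on all 8 arrays, and the 10 were Arg1, Dcn, Foxd2os, Foxq1, Hes5, Pf4, Ssu2, Stra6, Treml1 and Vwa1. The rule was also applied on 1 slide and read on the other, since each slide held replicate 1 or 2 of all groups. Of 6614 genes highest in GFP- endothelium on the first slide, 74.5% were highest on the second, against 33.2% of all genes. Of 3849 lowest on the first, 70.7% were lowest on the second, against 20% of all genes. Both slides held fractions of the same RNA, so these shares describe technical repeatability and are no independent repeat of the members. Each group kept the same array position on both slides, so position and group cannot be told apart. Among members above, the group nearest to GFP- endothelium was GFP- clusters in 67.6%, GFP+ endothelium in 24.1% and GFP+ clusters in 8.35% of cases. Among members below, the shares were 49.2%, 33.1% and 17.7% in the same order. Just inside the rule lay Fxyd6, Grhpr and Eif3l on the upper side, by 2e-04, 2e-04 and 4e-04, and Zfp384, Mettl25 and Epas1 on the lower side, by 1e-04, 2e-04 and 4e-04. Just outside lay Pacsin1, Itga9 and Smad1 on the upper side and Elac1 and Gprasp2 on the lower, all within 1e-04 of the bound, beside a probe with no gene name.

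Some platelet genes lay above all other arrays in GFP- endothelium and others lay below. Of the 54 platelet and megakaryocyte genes tested, 19 rose and 25 fell against the mean of the others. Above all other arrays lay 17 (31.5%, against 22% of all genes), and below lay 13 (24.1%, against 11.9%). The promoters of Pf4, Ppbp, Treml1, Gp6 and Gp5 are shown, 5 genes picked from those above the 6 other arrays. The sequences are from RefSeq (GRCm38.p6) and run from 250 bases before to 50 after the gene's start, on the gene's own strand. Capitals mark AGATAA or its reverse complement TTATCT, the core bound by GATA factors. The positions are chr5:90772185-90772484 (plus strand) for Pf4, chr5:90768268-90768567 (plus) for Ppbp, chr17:48359666-48359965 (plus) for Treml1, chr7:4397695-4397994 (minus) for Gp6 and chr16:30310732-30311031 (minus) for Gp5.
Pf4: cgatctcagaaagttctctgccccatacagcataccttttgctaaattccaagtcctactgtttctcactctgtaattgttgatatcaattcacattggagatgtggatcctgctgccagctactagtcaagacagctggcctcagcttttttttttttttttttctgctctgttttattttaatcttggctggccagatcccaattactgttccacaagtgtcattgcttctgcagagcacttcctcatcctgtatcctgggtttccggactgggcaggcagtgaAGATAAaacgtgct
Ppbp: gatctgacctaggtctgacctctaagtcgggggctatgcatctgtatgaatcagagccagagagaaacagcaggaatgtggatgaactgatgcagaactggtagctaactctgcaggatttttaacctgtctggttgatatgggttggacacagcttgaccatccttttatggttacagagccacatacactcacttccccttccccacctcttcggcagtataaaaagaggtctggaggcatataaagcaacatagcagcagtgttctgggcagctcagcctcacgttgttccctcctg
Treml1: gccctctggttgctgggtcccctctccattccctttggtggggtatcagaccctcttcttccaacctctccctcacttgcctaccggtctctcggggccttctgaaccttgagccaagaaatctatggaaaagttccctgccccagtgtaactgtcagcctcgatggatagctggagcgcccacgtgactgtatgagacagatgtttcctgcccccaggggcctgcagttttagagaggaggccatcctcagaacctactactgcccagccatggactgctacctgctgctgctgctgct
Gp6: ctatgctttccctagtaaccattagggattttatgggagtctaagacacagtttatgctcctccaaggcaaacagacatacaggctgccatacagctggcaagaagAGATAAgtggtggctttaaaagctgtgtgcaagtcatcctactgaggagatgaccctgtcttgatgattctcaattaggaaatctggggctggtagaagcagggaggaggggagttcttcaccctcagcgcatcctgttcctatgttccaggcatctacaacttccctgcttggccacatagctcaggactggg
Gp5: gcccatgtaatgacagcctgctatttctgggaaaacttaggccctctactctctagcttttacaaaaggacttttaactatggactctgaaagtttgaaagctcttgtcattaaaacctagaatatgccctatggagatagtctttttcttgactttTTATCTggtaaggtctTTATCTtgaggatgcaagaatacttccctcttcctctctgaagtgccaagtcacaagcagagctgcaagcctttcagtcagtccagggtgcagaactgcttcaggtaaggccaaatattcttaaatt
The motif stood once in the windows of Pf4 and Gp6 and at 2 places in that of Gp5, and it was not found in those of Ppbp and Treml1. On either strand, AGATAA was found in 3083 of 27025 promoters of this length (11.4%) and in 7 of the 45 promoters that matched the 54 platelet and megakaryocyte genes tested (15.6%). Of the 15 matched genes above all other arrays 5 held it (33.3%), and of the 11 below, 0. The Ets-type letters AGGAAG, again on either strand, were found in 35.1% of all promoters, in 7 of the 15 and in 8 of the 11, and CGGAAG, which overlaps with it in all but the first letter, in 17.2% of all, in 1 and in 3.

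The alpha-granule chemokine Pf4 (platelet factor 4) had levels of 4.05 and 4.03 in GFP- endothelium, against 3.02 and 2.89 in GFP+ endothelium, 2.00 and 2.00 in GFP- clusters and 2.63 and 2.56 in GFP+ clusters. Every GFP- endothelium array was at least 1 log2 unit above the next highest array, and GFP+ endothelium came second. The difference from the mean of the other groups was 1.52 ± 0.047 (SE; adjusted p = 2.87e-05), made up of 1.09 against GFP+ endothelium, 2.04 against GFP- clusters and 1.44 against GFP+ clusters. The Pf4 probe lies on chromosome 5, 91202275 to 91202334 (mm9, the build of the array files). In bulk RNA such as this, more cells of a type and more RNA per cell cannot be told apart.

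Ppbp (pro-platelet basic protein), the neighbour of Pf4 on chromosome 5, had levels of 0.44 and 0.38 in GFP- endothelium, against -0.48 and -0.44 in GFP+ endothelium, -2.41 and -2.31 in GFP- clusters and -1.76 and -1.89 in GFP+ clusters. The groups did not overlap, and both endothelial groups lay above both cluster groups. The difference was 1.96 ± 0.054 (adjusted p = 2.22e-05), the widest upward one among genes with a symbol that were measured on all 8 arrays. Treml1, a receptor kept in the alpha granule and exposed on activated platelets, stood at 0.48 and 0.68 in GFP- endothelium, against -0.46 and -0.43 in GFP+ endothelium, -1.36 and -1.30 in GFP- clusters and -1.01 and -1.06 in GFP+ clusters. Its difference was 1.52 ± 0.061 (adjusted p = 5.93e-05), with the same order of the 4 groups as Pf4 and Ppbp: GFP- endothelium, GFP+ endothelium, GFP+ clusters, GFP- clusters.

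Of the 12 genes for platelet secreted and granule proteins, 6 rose and 6 fell, and their median difference was -0.046, against 0.070 over all genes. Besides the chemokine genes and Treml1, Thbs1, the granule adhesion protein thrombospondin 1 (1.34), Timp3, a metalloproteinase inhibitor (0.79), and Mmrn1, which holds factor V in the granule (0.48), were higher. F13a1, the A chain of coagulation factor XIII, was lower by the most, at -2.12 and -2.06 in GFP- endothelium, against -0.96 and -0.95 in GFP+ endothelium, -0.46 and -0.40 in GFP- clusters and 0.85 and 0.73 in GFP+ clusters. All 6 other arrays exceeded both GFP- endothelium arrays by at least 1 log2 unit, and the difference was -1.89 ± 0.047 (adjusted p = 1.81e-05). Srgn, the granule proteoglycan serglycin (-1.32), F5, coagulation factor V (-1.004), Nrgn (-0.60) and Clu (-0.58) were also lower, with Nrgn and Clu inside the range of the other arrays. Nrgn did not pass without the first GFP- endothelium array (adjusted p = 0.0712). The last of the 6 was Selp, P-selectin, which was not well above background in GFP- endothelium, so no size is given. Several of the genes that fell are also made by blood progenitors or macrophages: F13a1 and Srgn are general myeloid products. Pf4, which rose, is on the macrophage and myeloid list as well. The part of other cell types in these differences was not tested.

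Among 13 receptor and glycoprotein genes, 7 rose and 4 fell, with 2 short of the threshold (median 0.40). Gp6, the collagen receptor glycoprotein VI, had levels of -2.88 and -2.85 in GFP- endothelium, against -4.06 and -4.29 in GFP+ endothelium, -4.87 and -4.57 in GFP- clusters and -5.34 and -4.82 in GFP+ clusters, and was not well above background in GFP+ clusters, against which it was at least 3.55-fold higher. Gp5, a member of the glycoprotein Ib-IX-V complex, read -2.81 and -2.84 in GFP- endothelium, against -3.85 and -3.91 in GFP+ endothelium, -5.23 and -4.16 in GFP- clusters and -4.51 and -4.47 in GFP+ clusters, at least 3.18-fold above GFP+ clusters, where it too was not well above background. Both genes were dim wherever measured, and highest in GFP- endothelium with no overlap. Clec1b, the podoplanin receptor CLEC-2, was bright everywhere, at 4.17 and 4.20 in GFP- endothelium, against 3.37 and 3.35 in GFP+ endothelium, 3.54 and 3.49 in GFP- clusters and 2.94 and 2.79 in GFP+ clusters, with a difference of 0.94 ± 0.051 (adjusted p = 0.000153). Of the remaining Ib-IX-V genes, Gp1bb lay above all other arrays (0.73), while Gp9 (0.68) and Gp1ba (0.40) passed the test inside the range. Gp1bb did not pass without the first or without the second GFP- endothelium array (adjusted p = 0.0582 and 0.0819). Gp9 did not differ beyond the spread from GFP+ clusters (-0.09, adjusted p = 0.305), and Gp1ba was lower than in GFP+ endothelium (-0.30, adjusted p = 0.00505). F2rl3, the thrombin receptor PAR4, was higher by a small amount (0.31, and 0.67 by another probe above background on all arrays). F2rl3 did not pass without the first or the second GFP- endothelium array (adjusted p = 0.149 and 0.0921), the second GFP+ endothelium array (0.0553) or the first GFP- cluster array (0.0512). Cd9 lay above all other arrays without passing (0.43, adjusted p = 0.0518). Itga2b, which encodes CD41, the integrin chain that megakaryocytes share with early blood progenitors, did not differ beyond the spread (-0.003, adjusted p = 0.976). P2rx1 (-1.02) and the integrin chain Itgb3 (-0.45) were among the receptor genes that fell. P2ry12, the platelet ADP receptor, counts among them by its test but was not well above background in GFP- endothelium or GFP- clusters.

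The platelet enzyme, cytoskeleton and signalling list gave 5 genes higher, 9 lower and 4 that did not pass of 18 (median -0.098). Tubb1, the beta tubulin of the platelet's marginal band, was at least 1.96-fold higher than in GFP+ clusters, where it was not well above background. Gng11 (0.68), Tpm4 (0.60), Myl9 (0.43) and Rasgrp2 (0.20) rose with it, of which Tpm4 and Myl9 are cytoskeletal genes that many cell types use. Rasgrp2 did not pass without the second GFP- endothelium array (adjusted p = 0.0714), and another of its probes gave 0.046. Bin2 (-1.21), Ptgs1, the cyclooxygenase of platelets (-0.86), Nbeal2 (-0.58) and Hps4 (-0.22), both needed for platelet granules, lay below all other arrays. Hps4 did not pass without the first GFP- endothelium array (adjusted p = 0.0563). Alox12, Fermt3, Plek, Slc35d3 and Gucy1a1 were lower inside the range, and Tbxas1, Rab27b, Vps16 and Gucy1b1 did not pass. Megakaryocyte transcription factors went the other way: of 11, 1 rose and 6 fell, with 4 short of the threshold (median -0.24). Runx1, required for blood formation from endothelium, read -3.42 and -3.64 in GFP- endothelium, against -2.64 and -2.64 in GFP+ endothelium, -1.25 and -1.34 in GFP- clusters and 0.74 and 0.60 in GFP+ clusters. The groups did not overlap, and the difference was -2.44 ± 0.073 (adjusted p = 2.74e-05), the widest of this list. Nfe2, the factor of late platelet production (-1.68), and Gfi1b (-0.99) were lower but inside the range, since Nfe2 overlapped with GFP+ endothelium and Gfi1b was higher than there. Meis1 (-0.64) and Zfpm1, the Gata1 cofactor FOG1 (-0.26), were below all other arrays. Zfpm1 did not pass without the first or without the second GFP- endothelium array (adjusted p = 0.0513 and 0.0636). Tal1 (-0.24) was lower inside the range, and Fli1, Mef2c, Ikzf5 and Rbpms2 did not pass. Gata1 itself rose against the mean of the others (0.27) with a level of -0.08 and -0.13 in GFP- endothelium, against -1.58 and -1.68 in GFP+ endothelium, 1.04 and 1.096 in GFP- clusters and -0.54 and -0.58 in GFP+ clusters, so it was lower than in GFP- clusters and higher than in GFP+ endothelium. Over the 54 genes of all 4 lists, 19 rose and 25 fell, 17 lay above and 13 below all other arrays, and the median was -0.024.

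**Figure D1:**
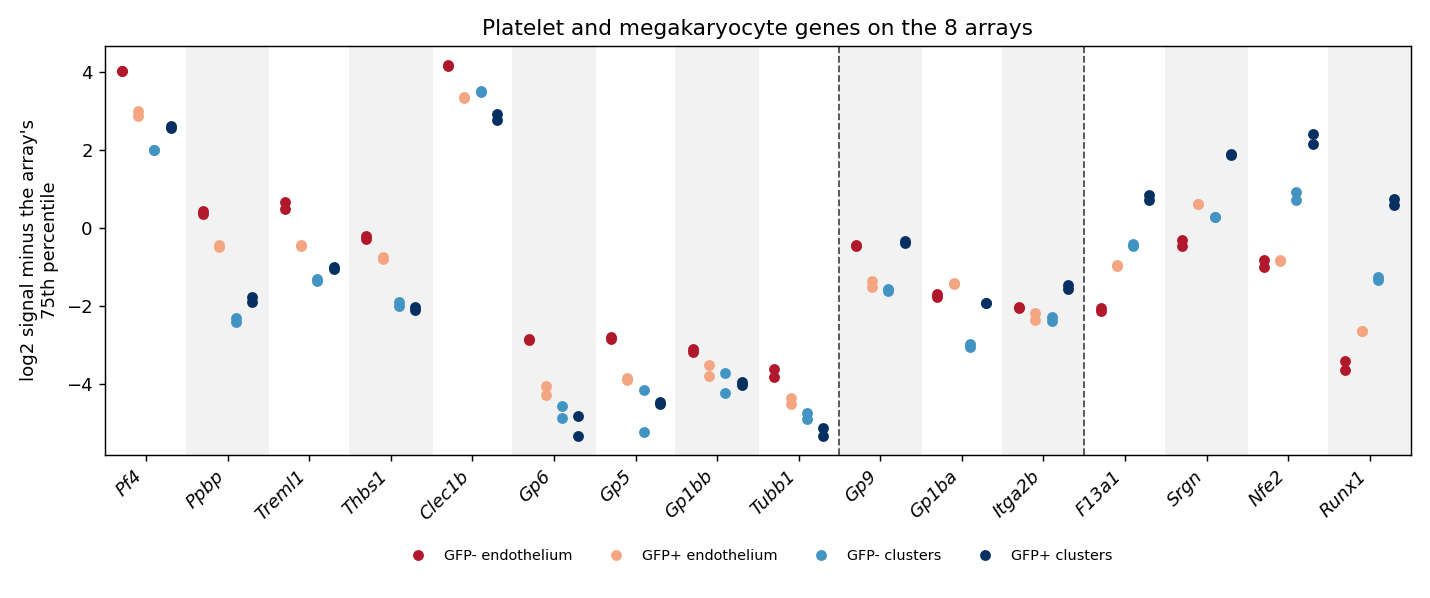
Log2 signal minus the array's 75th percentile (vertical axis) for 16 platelet and megakaryocyte genes, with 1 point for each of the 8 arrays and groups from left to right GFP- endothelium, GFP+ endothelium, GFP- clusters and GFP+ clusters; dashed lines part the genes above all other arrays, those inside the range (Gp9, Gp1ba, Itga2b) and those lower. Pf4 stands at 4.05 and 4.03 in GFP- endothelium with every other array at 3.02 or less, while Runx1 stands at -3.42 and -3.64 with every other array higher; Gp6, Gp5 and Tubb1 were not well above background in GFP+ clusters.

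The summed signal of the 9 platelet and megakaryocyte markers was 20.9 and 20.8 multiples of the 75th percentile in GFP- endothelium. It was 10.6 and 9.94 in GFP+ endothelium, 5.99 and 6.04 in GFP- clusters and 10.7 and 10.4 in GFP+ clusters, and Pf4 makes up most of each sum. The sum shares genes with the platelet lists, and Pf4, Ppbp and Treml1 among them were taken by the rule. Its being highest in GFP- endothelium is therefore no separate result, and its part was not tested. All 9 markers were above background in the first 3 groups, and Gp6 and Tubb1 were not in GFP+ clusters. Red cell genes did not follow the same order. The 7 erythroid markers summed to 635 and 655 in GFP- endothelium, 138 and 145 in GFP+ endothelium, 929 and 912 in GFP- clusters and 130 and 131 in GFP+ clusters. Of 33 erythroid genes 21 were higher and 3 were lower, with 9 short of the threshold against the mean of the others, and 0 lay outside the range of the other arrays. Their median difference was 1.63 against GFP+ endothelium, -0.99 against GFP- clusters and 1.62 against GFP+ clusters. The embryonic globin Hbb-bh1 stood at 7.82 and 7.83 in GFP- endothelium, against 5.52 and 5.54 in GFP+ endothelium, 8.14 and 8.23 in GFP- clusters and 5.50 and 5.44 in GFP+ clusters, so both GFP- groups lay above both GFP+ groups and GFP- clusters came first. The adult-type beta globin Hbb-bt (1.41) and the alpha globin chaperone Ahsp (1.43) likewise had GFP- clusters first and GFP- endothelium next, and the water channel gene Aqp3 was not well above background in GFP+ clusters. The part of red cell RNA in the differences of other genes was not tested.

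**Figure D2:**
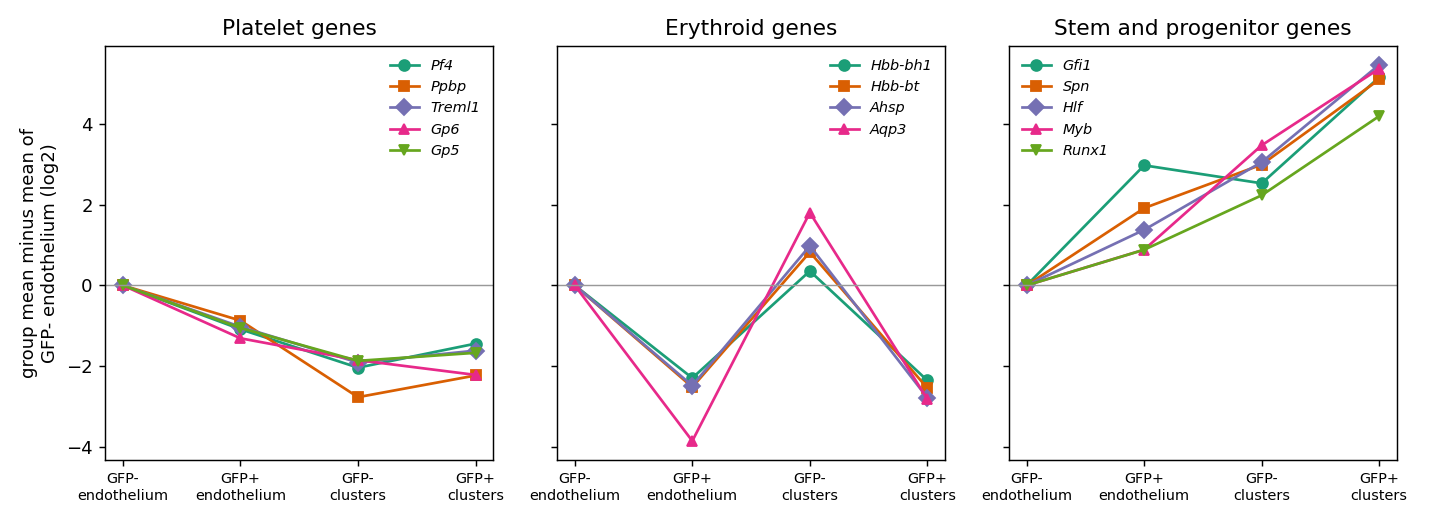
Group means relative to GFP- endothelium (vertical axis, log2) for 5 platelet, 4 erythroid and 5 stem and progenitor genes, with the 4 groups along the horizontal axis and lines joining the means of 1 gene. The 5 platelet genes, all taken from those above all other arrays, are highest in GFP- endothelium, and the 4 erythroid genes peak in GFP- clusters. Over the 54 genes of the platelet and megakaryocyte lists, 19 rose and 25 fell. Gfi1, Spn, Hlf, Myb and Runx1 are lowest in GFP- endothelium and highest in GFP+ clusters. Gp5, Gp6 and Aqp3 were not well above background in every group.

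Genes of mesenchyme, the loose connective tissue around the vessels, made up another set above all other arrays. Of 32 genes of mesenchyme and smooth muscle, 21 were higher and 4 were lower, with 7 short of the threshold, 16 lay above and 2 below all other arrays, and the median was 0.50. Dcn, which encodes the collagen-binding proteoglycan decorin, had levels of 1.38 and 1.25 in GFP- endothelium, against -0.11 and -0.13 in GFP+ endothelium, 0.25 and 0.36 in GFP- clusters and -0.77 and -0.79 in GFP+ clusters. GFP- clusters came nearest and GFP+ clusters were lowest, with no overlap, and the difference was 1.51 ± 0.051 (adjusted p = 3.87e-05). Lum, the related proteoglycan lumican, was at 1.85 and 2.02 in GFP- endothelium, against 1.04 and 1.01 in GFP+ endothelium, 0.90 and 0.86 in GFP- clusters and -0.12 and -0.14 in GFP+ clusters (1.35). Postn, the matrix protein periostin (1.07), Col1a1 (0.80) and Col3a1 (0.79), chains of fibrillar collagens, and the mesenchymal transcription factors Meox1 (0.97), Prrx2 (0.86), Wt1 (0.78) and Twist2 (0.68) rose with them. Tcf21 and Prrx1, of the same kind, were not well above background in GFP+ clusters, and were at least 1.57-fold and 3.6-fold higher than there. Prrx1 did not differ beyond the spread from GFP+ endothelium or GFP- clusters. Dlk1 (-0.34) and Gata4 (-0.99), a zinc finger factor of heart and lateral mesoderm, lay below all other arrays, and the fibrillin gene Fbn1 (-0.91) was lower inside the range. The 5 mesenchyme markers (Pdgfra, Pdgfrb, Col1a1, Col3a1 and Acta2) were above background on all arrays. They summed to 13.4 and 13.3 multiples of the 75th percentile in GFP- endothelium, 10.9 and 10.9 in GFP+ endothelium, at most 10.7 in GFP- clusters and 6.37 and 6.47 in GFP+ clusters. This sum shares Col1a1 and Col3a1 with the list, so its moving with the list is no separate result, and its part was not tested.

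The widest differences above, among genes measured on all 8 arrays and after Ppbp, included matrix and signalling genes beside the transcripts Foxd2os (1.53) and Ssu2 (1.495). Vwa1, a basement membrane matrix protein, read -0.48 and -0.51 in GFP- endothelium, against -1.88 and -1.85 in GFP+ endothelium, -2.05 and -2.08 in GFP- clusters and -3.52 and -3.24 in GFP+ clusters. No other array came within 1 log2 unit of GFP- endothelium, and the difference was 1.94 ± 0.076 (adjusted p = 5.64e-05). Stra6, the receptor that takes up retinol, read -1.004 and -1.25 in GFP- endothelium, against -2.58 and -2.54 in GFP+ endothelium, -2.10 and -2.27 in GFP- clusters and -3.43 and -3.49 in GFP+ clusters (1.61). Both genes were lowest in GFP+ clusters. Also among the 15 widest were the neural and mesodermal zinc finger gene Zic1 (1.499, and 0.32 by another probe above background on all arrays), the Wnt receptor Fzd10 (1.40), the forkhead gene Foxq1 (1.36), the arginase gene Arg1 (1.46), the apolipoprotein gene Apod (1.36) and the casein gene Csn3 (1.40), of which Apod and Csn3 each have another probe above background on no array. Where GFP+ clusters were not well above background only bounds can be given. There, Kcna5, a voltage-gated potassium channel, was at least 7.4-fold higher in GFP- endothelium by its brightest probe, the collectin Colec10 at least 4.73-fold, the forkhead gene Foxf2 at least 4.55-fold and Tnfrsf11b, the decoy receptor osteoprotegerin, at least 4.15-fold. Another Kcna5 probe, well above background on all 8 arrays, gave a log2 difference from the mean of the others of 0.22. Hoxc5 and Rflna were each at least 3.71-fold higher, Prrx1 at least 3.6-fold and the nuclear protein gene Trnp1 at least 3.35-fold. Colec10 and Trnp1 did not differ beyond the spread from GFP- clusters (0.14 and 1.24, adjusted p = 0.519 and 0.0538). Prrx1 passed against neither GFP+ endothelium (0.41, adjusted p = 0.114) nor GFP- clusters (0.50, adjusted p = 0.106). Spata20 was not well above background in GFP+ endothelium and was at least 3.37-fold higher than there. Spata20 did not differ beyond the spread from GFP- clusters (0.59, adjusted p = 0.275) or GFP+ clusters (0.26, adjusted p = 0.584). Its test against the mean of the others did not pass without either GFP- endothelium array (adjusted p = 0.0947 and 0.157) or either GFP+ cluster array (0.0532 and 0.0552).

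Wnt pathway genes gave 20 higher, 3 lower and 12 short of the threshold among 35 (median 0.19), with 8 above (22.9%, near the 22% of all genes) and 1 below all other arrays. Those above included Fzd10 and Nkd1 (1.09) and Lef1 (0.98), a feedback inhibitor and a nuclear effector of Wnt signalling, both common target genes. Lef1 was at 0.23 and 0.23 in GFP- endothelium, against -0.75 and -0.63 in GFP+ endothelium, -0.17 and -0.21 in GFP- clusters and -1.35 and -1.36 in GFP+ clusters, with all 3 other groups below both GFP- endothelium arrays. Of the ligands, Wnt6 lay above all other arrays (at least 2.58-fold over GFP+ clusters, where it was not well above background) and Wnt5a and Wnt5b rose inside the range, while the secreted inhibitor Sfrp2 lay below (-0.68) and Wnt9b, called lower, was not well above background in GFP- endothelium. Wnt6 did not differ beyond the spread from GFP+ endothelium (0.32, adjusted p = 0.106). Of 31 Hox genes, which record position along the body axis, 15 were higher and 4 were lower, with 12 short of the threshold (median 0.21). Against GFP- clusters alone, 1 was higher and 8 were lower, with a median of -0.088. The median was 0.425 against GFP+ endothelium and 0.534 against GFP+ clusters. Of these 31, 7 lay above all other arrays (22.6%, also near the 22% of all genes) and 2 below. The neighbouring Hoxc4 (0.86), Hoxc5 (at least 3.71-fold over GFP+ clusters) and Hoxc6 (0.85) on chromosome 15 lay above all other arrays, as did Hoxb7 (0.67), Hoxb4 (0.26) and Hoxc11, which was not well above background in either GFP+ group, and Hoxd4 without passing. For Hoxc6, GFP- clusters came close to GFP- endothelium and that pair did not pass the test (0.19, adjusted p = 0.0693). Nor did that pair pass for Hoxc4 (0.23, adjusted p = 0.0787) or Hoxc11 (0.19, adjusted p = 0.584). Hoxa9 (-0.57) lay below, as did Hoxa13, which was not well above background in GFP- endothelium.

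Neural and neural crest genes gave 9 higher, 3 lower and 4 short of the threshold among 16, with 9 above all other arrays (56.2%) and a median of 0.37. Tubb3, the neuronal beta tubulin (1.02), the neurofilament gene Nefl (0.83) and the neurotrophin receptor Ngfr (0.59) were among them, and Ednrb, the endothelin receptor of neural crest and endothelium, was lower inside the range (-0.92). Of the neural crest markers, Foxd3 was not above background on any array, and Sox10 with Foxd3 summed to 0.195 and 0.212 multiples of the 75th percentile in GFP- endothelium, 0.126 and 0.142 in GFP+ endothelium, 0.176 and 0.186 in GFP- clusters and 0.141 and 0.167 in GFP+ clusters, and the part of such cells in the result was not tested. Genes for proteins that liver and yolk sac secrete gave 13 higher, 3 lower and 7 short of the threshold among 23 (median 0.25), with 9 above all other arrays. They included the fibrinogen chains Fgb (1.01) and Fgg (0.98), which platelets also store as protein, and the bikunin precursor Ambp (1.13). Apoe (-1.01) and Apoc1 (-0.80), which macrophages also make, lay below. The hepatocyte and visceral endoderm markers (Afp, Alb, Ttr and Apoa1) summed to 8.78 and 9.14 in GFP- endothelium, 6.45 and 6.56 in GFP+ endothelium, 5.52 and 5.52 in GFP- clusters and 4.49 and 4.53 in GFP+ clusters, and their part in the result was not tested.

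Genes of epithelium, mesonephros and gut gave 4 higher, 3 lower and 7 short of the threshold among 14, with 2 above (14.3%), 1 below and a median of 0.013. Krt8, a keratin of simple epithelia (0.80), and Tfap2c, which was not well above background in GFP+ clusters, were above, Krt19 (0.64) rose inside the range and the gut factor Foxa1 was below (-0.73). Tfap2c did not differ beyond the spread from GFP- clusters (0.21, adjusted p = 0.626) or GFP+ endothelium (0.78, adjusted p = 0.0581). Krt19 did not pass without the first or without the second GFP- endothelium array (adjusted p = 0.112 and 0.07), nor Foxa1 without the first (0.0533). Of the epithelial markers (Epcam, Cdh1, Krt8, Krt18 and Pax2), Epcam was not above background on any array. They summed to 5.93 and 6.04 multiples of the 75th percentile in GFP- endothelium and 5.24 and 5.36 in GFP+ endothelium. The sums were 5.16 and 5.27 in GFP- clusters and highest in GFP+ clusters, at 7.39 and 7.34, and their part was not tested. Genes of primordial germ cells gave 6 higher, 4 lower and 5 short of the threshold among 15, with 5 above (33.3%), 2 below and a median of -0.003. Dppa5a (1.11) and Prdm1 (0.86) were above and the germ cell helicase Ddx4 below (-1.12, above background on 7 arrays), while the germ cell markers Pou5f1 and Dazl were not above background on any array.

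**Figure D3:**
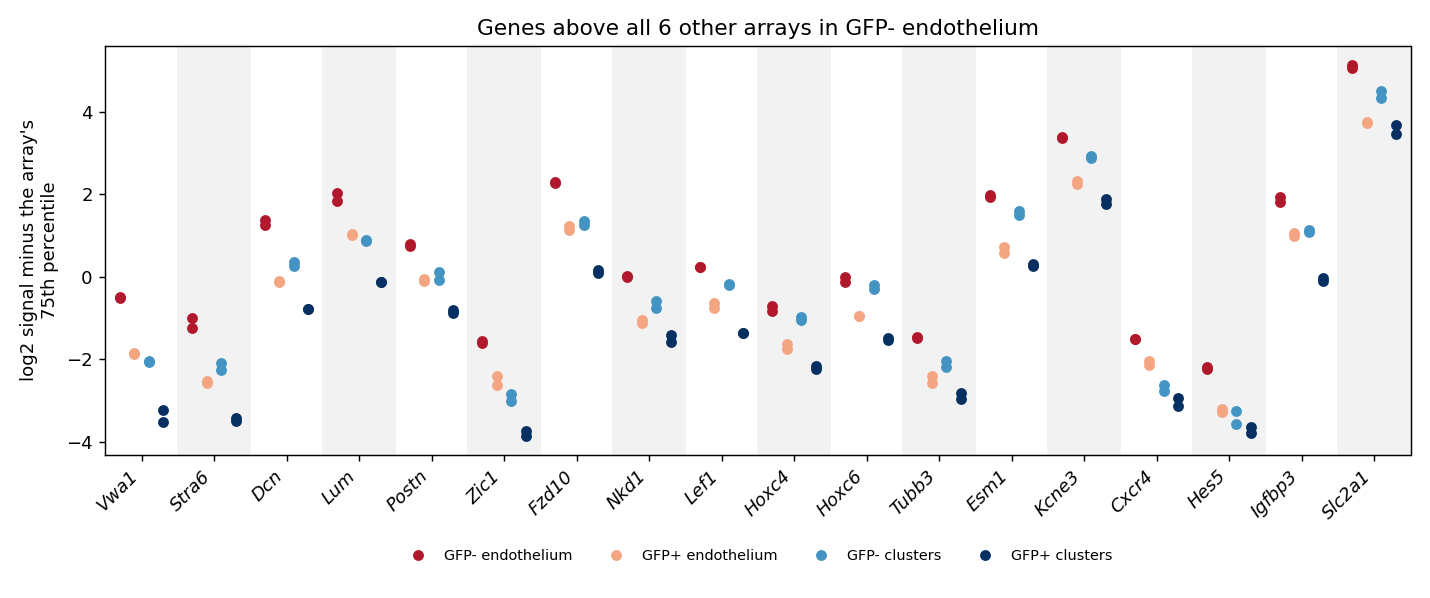
Log2 signal minus the array's 75th percentile (vertical axis) for 18 genes above all other arrays in GFP- endothelium, with 1 point for each array and groups ordered GFP- endothelium, GFP+ endothelium, GFP- clusters and GFP+ clusters. In most of the genes GFP+ clusters are lowest, as in Dcn at 1.38 and 1.25 in GFP- endothelium and -0.77 and -0.79 in GFP+ clusters.

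Genes of endothelium in general were mostly higher than in the mean of the others, by small amounts. Of 37, 22 rose and 5 fell, with 10 short of the threshold, and the median was 0.20. Of these 37, 11 lay above and 2 below all other arrays. With quantile normalization, the median was 0.025 and 3 lay above. Against GFP+ endothelium alone, 10 were higher and 13 lower, with a median of -0.109. The median was 0.24 against GFP- clusters and 0.492 against GFP+ clusters. Cdh5, which encodes VE-cadherin, was at 4.40 and 4.35 in GFP- endothelium, against 4.07 and 4.16 in GFP+ endothelium, 4.16 and 4.11 in GFP- clusters and 3.73 and 3.67 in GFP+ clusters (0.39). The vascular endothelial growth factor receptors Kdr (0.34) and Flt1 (0.33) were also above all other arrays, while Clec14a (-0.48) and Calcrl, the adrenomedullin receptor (-0.70), were below. Podxl, podocalyxin, rose inside the range (0.48). Vwf, von Willebrand factor, was far lower than in GFP+ endothelium and inside the range, at 3.37 and 3.49 in GFP- endothelium, against 5.63 and 5.76 in GFP+ endothelium, 3.08 and 3.08 in GFP- clusters and 4.31 and 4.57 in GFP+ clusters. Genes of sprouting tip cells and of angiogenesis stood out more: 20 of 29 rose and 4 fell, with 5 short of the threshold, and 13 lay above all other arrays (44.8%; 8 with quantile normalization). Esm1, the tip cell proteoglycan endocan, had levels of 1.94 and 1.99 in GFP- endothelium, against 0.58 and 0.73 in GFP+ endothelium, 1.61 and 1.49 in GFP- clusters and 0.31 and 0.26 in GFP+ clusters. GFP- clusters came next and both GFP+ groups were lower, with a difference of 1.14 ± 0.058 (adjusted p = 0.000133). Kcne3, a potassium channel subunit of tip cells, followed the same order at 3.39 and 3.38 in GFP- endothelium, against 2.32 and 2.26 in GFP+ endothelium, 2.93 and 2.87 in GFP- clusters and 1.88 and 1.76 in GFP+ clusters (1.04). Cxcr4, the chemokine receptor of sprouting endothelium (1.099), the apelin receptor Aplnr (0.66) with its ligand Apln (0.63), and Pdgfb (0.46), which recruits pericytes, rose too. Vegfa, the growth factor that tip cells follow, was lowest in GFP- endothelium (-0.71).

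The arterial and Notch list gave 15 genes higher, 7 lower and 8 that did not pass of 30 (median 0.16). Of the 30, 7 lay above (23.3%, near the 22% of all genes) and 1 below. Against GFP+ endothelium alone, 8 were higher and 14 lower, with a median of -0.16. The Notch target Hes5 read -2.18 and -2.24 in GFP- endothelium, against -3.21 and -3.29 in GFP+ endothelium, -3.26 and -3.58 in GFP- clusters and -3.78 and -3.65 in GFP+ clusters, clear of all other arrays, with a difference of 1.25 ± 0.094 (adjusted p = 0.000439). Igfbp3 (1.19), Cxcr4, Unc5b, a netrin receptor of arterial endothelium (0.82), and Heyl (at least 1.79-fold over GFP+ clusters, where it was not well above background) were also above, whereas the arterial gap junction gene Gja5 was inside the range, at 1.93 and 2.06 in GFP- endothelium, against 4.15 and 4.19 in GFP+ endothelium, 0.56 and 0.55 in GFP- clusters and 2.59 and 2.55 in GFP+ clusters. The test of Heyl against the mean of the others did not pass without any 1 array of GFP- endothelium, GFP+ endothelium or GFP- clusters (adjusted p of 0.0646 to 0.265). Gja5 lay above GFP- clusters and under both GFP+ groups. Alox5ap, the partner of 5-lipoxygenase, was below all others at -0.46 and -0.45 in GFP- endothelium, against 0.93 and 0.95 in GFP+ endothelium, 0.72 and 0.72 in GFP- clusters and 2.74 and 2.69 in GFP+ clusters (-1.91). Among 42 ephrin and guidance genes, 19 rose and 6 fell, with 17 short of the threshold (median 0.18), and 14 lay above (33.3%) and 4 below. Ephb1 (1.16), the netrin gene Ntn1, Sema3a (0.89) and Efna1 (0.77) were above. Ntn1 was at least 2.38-fold over GFP+ clusters, where it was not well above background. Neither Ephb1 nor Ntn1 differed beyond the spread from GFP- clusters (0.24 and 0.31, adjusted p = 0.259 and 0.242). The repellents Slit2 (-0.69), Slit3 (-0.31) and Sema3d (-0.58, above background on 6 arrays) were below.

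Venous and lymphatic genes split. Of 18, 6 rose, 9 fell and 3 missed the threshold, with 3 above, 7 below (38.9%) and a median of -0.27. Podoplanin, Pdpn (1.01), Ephb4 (0.47), which marks veins, and Aplnr were above. The scavenger and uptake receptors that line sinusoids and lymphatics were below: Mrc1 stood at 1.08 and 1.15 in GFP- endothelium, against 2.25 and 2.26 in GFP+ endothelium, 2.15 and 2.10 in GFP- clusters and 2.69 and 2.63 in GFP+ clusters, Stab2 at 3.16 and 3.24 in GFP- endothelium, against 4.35 and 4.41 in GFP+ endothelium, 3.83 and 3.90 in GFP- clusters and 4.24 and 4.39 in GFP+ clusters. In each, both GFP- endothelium arrays lay under all others, with differences of -1.23 ± 0.040 and -0.99 ± 0.057. The transcription factor gene Maf (-1.08), the endocytic adaptor Dab2 (-0.72), Lyve1 (-0.65), Oit3 (-0.60) and Ackr1 (-0.50) were below with them. Mrc1, Maf, Dab2 and Lyve1 are also macrophage genes, and the macrophage markers given below moved the same way, whose part in the result was not tested. Of 37 BMP and TGF-beta genes, 15 rose and 7 fell, with 15 short of the threshold (median 0.14, and -0.038 against GFP+ endothelium alone). Above all other arrays lay 4 (10.8%) and below lay 3 (8.11%), both under the 22% and 11.9% of all genes. Id3 (0.58), a target of BMP signalling, and the ligand genes Bmp7 (0.60) and Tgfb2 (0.49) were above all other arrays. The ligand Bmp2 was below, at 0.58 and 0.58 in GFP- endothelium, against 1.60 and 1.63 in GFP+ endothelium, 1.32 and 1.33 in GFP- clusters and 1.47 and 1.40 in GFP+ clusters, with a difference of -0.87 ± 0.037 (adjusted p = 7.09e-05) and all 3 other groups close together. Bmp6 (-1.12) and the co-receptor gene Tgfbr3 (-0.46) were also below. The BMP-binding protein gene Bmper (-0.89) and Ltbp4, which anchors latent TGF-beta in the matrix (-0.67), were lower inside the range, and the receptor gene Bmpr1b, called higher, was not well above background in GFP+ clusters.

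Mitochondrial respiratory chain genes moved in 1 direction by small steps: 28 of 35 rose, the 7 short of the threshold also had differences above 0, 28 lay above all other arrays (80%) and the median was 0.36. With quantile normalization 14 lay above, 2 lay below and the median was 0.11. Cytochrome c, Cycs, was at 5.23 and 5.31 in GFP- endothelium, against 4.61 and 4.53 in GFP+ endothelium, 4.85 and 4.84 in GFP- clusters and 4.74 and 4.57 in GFP+ clusters (0.58), and the complex subunit genes Ndufa4 (0.56), Ndufa1 (0.50), Cox7b (0.46) and Cox7a2 (0.45) rose likewise. Ribosomal and nucleolar genes gave 19 higher, 2 lower and 16 short of the threshold among 37, with 20 above and a median of 0.24, but with quantile normalization the median was -0.002 and 3 lay above. The ribosomal protein genes Rps19 (0.44), Rps27l (0.43), Rps24 (0.36) and Rpl7 (0.35) rose, while the polymerase I subunit Polr1b fell (-0.40). Cell cycle genes gave 17 higher, 5 lower and 22 short of the threshold among 44 (median 0.10, -0.056 with quantile normalization). The replication genes Gins1 (0.42), Gins2 (0.67) and Pcna (0.39) and the cyclin Ccnd1 (0.47) were above, and the cell cycle inhibitor Cdkn2c (-0.67) and the proliferation antigen Mki67 (-0.28) below. Glycolysis and hypoxia genes gave 13 higher, 8 lower and 9 short of the threshold among 30 (median 0.082, -0.063 with quantile normalization). Slc2a1, the glucose transporter GLUT1, stood out at 5.08 and 5.15 in GFP- endothelium, against 3.76 and 3.72 in GFP+ endothelium, 4.50 and 4.35 in GFP- clusters and 3.68 and 3.48 in GFP+ clusters. Each GFP- endothelium array exceeded every other array, with a difference of 1.20 ± 0.073 (adjusted p = 0.000220). Pfkl (0.69) and Pkm (0.64) rose and the hexokinase gene Hk2 fell (-0.73). Imprinted and fetal growth genes gave 9 higher, 5 lower and 12 short of the threshold among 26 (median 0.061, -0.084 with quantile normalization). Above all other arrays lay 6 (23.1%) and below lay 3 (11.5%), near the 22% and 11.9% of all genes. Lin28a (0.80) and Nnat (0.81) were above and the long noncoding RNA Meg3 (-0.77, and -0.29 and -0.31 by other probes) below. Ascl2 (-0.86) was lower inside the range. Slc22a3, also called lower, was well above background in GFP+ clusters alone.

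The widest differences of all were downward, in genes of blood formation. Gfi1, the repressor that shuts off endothelial genes as blood cells emerge, had levels of -2.62 and -2.48 in GFP- endothelium, against 0.44 and 0.41 in GFP+ endothelium, -0.05 and 0.01 in GFP- clusters and 2.67 and 2.55 in GFP+ clusters. No group overlapped another, and the difference of -3.56 ± 0.057 (adjusted p = 7.36e-06) was 11.8-fold, the widest below among genes measured on all 8 arrays. The probe lies on chromosome 5, 108145719 to 108145778 (mm9). Spn, which encodes CD43, a surface protein of maturing clusters, stood at -3.78 and -3.83 in GFP- endothelium, against -1.85 and -1.94 in GFP+ endothelium, -0.75 and -0.88 in GFP- clusters and 1.34 and 1.26 in GFP+ clusters and differed by -3.34 ± 0.054. The stem cell factor Hlf read -4.90 and -4.21 in GFP- endothelium, against -3.19 and -3.16 in GFP+ endothelium, -1.47 and -1.52 in GFP- clusters and 0.89 and 0.94 in GFP+ clusters and differed by -3.30 ± 0.17. Myb, needed for definitive blood, read -2.26 and -2.18 in GFP- endothelium, against -1.29 and -1.38 in GFP+ endothelium, 1.30 and 1.21 in GFP- clusters and 3.19 and 3.12 in GFP+ clusters and differed by -3.24 ± 0.050. In Spn, Hlf and Myb the groups were ordered GFP+ clusters, GFP- clusters, GFP+ endothelium and GFP- endothelium from high to low, with no overlap. The Ikaros family gene Ikzf2 (-2.82), the chemokine Ccl9 (-2.99), the organic anion transporter Slco4a1 (-2.88), the myosin Myo1g (-2.81), the receptor Cd300c2 (-2.79), the blood cell GTPase Rac2 (-2.75), the galectin Lgals9 (-2.72), Wdfy4 (-2.71, with another probe above background on no array), the DNA sensor family gene Ifi202b (-2.65), the protease inhibitor Serpinb1a (-2.59) and Evi2a (-2.52) complete the 15 widest.

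**Figure D4:**
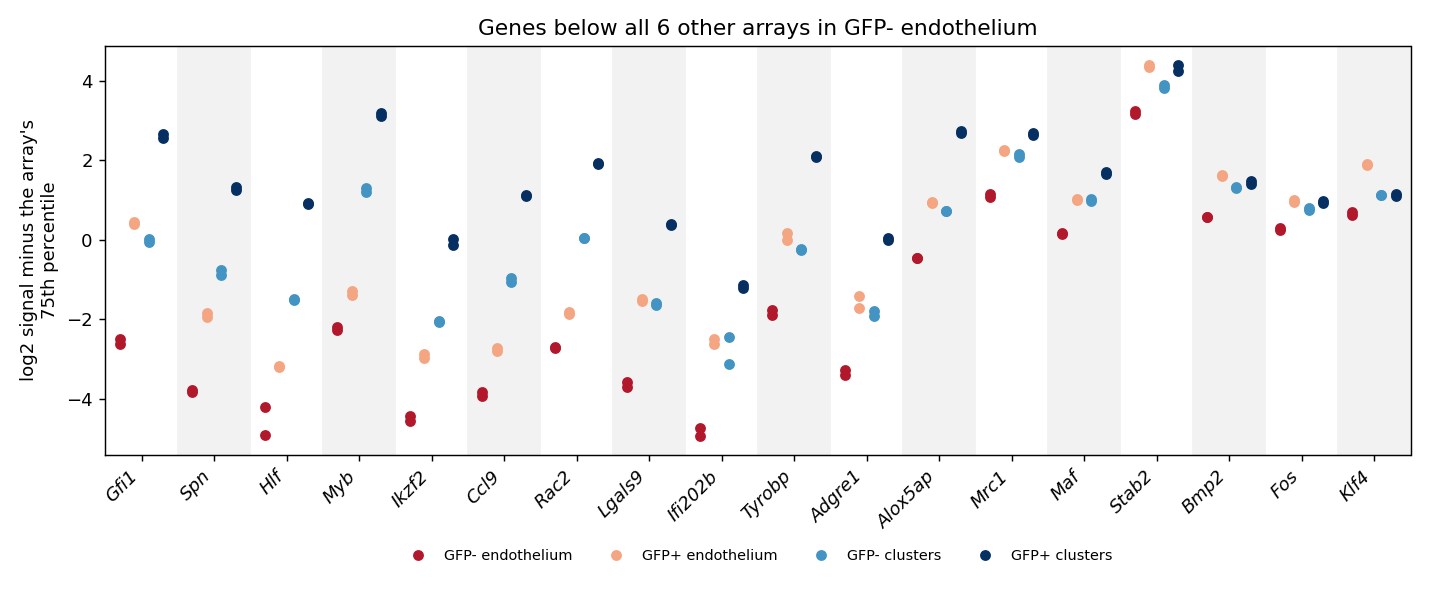
Log2 signal minus the array's 75th percentile (vertical axis) for 18 genes below all other arrays in GFP- endothelium, with 1 point for each array and groups ordered GFP- endothelium, GFP+ endothelium, GFP- clusters and GFP+ clusters. The leftmost genes span several log2 units, as Gfi1 at -2.62 and -2.48 in GFP- endothelium and 2.67 and 2.55 in GFP+ clusters, and the rightmost, such as Bmp2, Fos and Klf4, under 2 units.

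Of 32 stem cell genes and regulators, 22 fell, 6 rose and 4 did not pass, with 15 below (46.9%), 3 above and a median of -0.47. The genes above were Cd34 (0.38), Lmo2 (0.20) and Hoxb4 (0.26), of which Cd34 and Lmo2 are endothelial genes as well. Lmo2 did not pass without the first or without the second GFP- endothelium array (adjusted p = 0.0724 and 0.122). Of 30 genes of blood cells in general 28 fell, 1 rose, the actin-bundling gene Lcp1 (0.24), and 1 did not pass, with 19 below (63.3%) and a median of -1.52. The lymphoid factor gene Ikzf1, called lower inside the range, was not well above background in GFP- endothelium by its brightest probe. Of 31 macrophage and myeloid genes 28 fell and 2 did not pass, with 22 below (71%) and a median of -1.76. The scavenger receptor gene Timd4 was at least 1.79-fold lower than in GFP- clusters. The 1 that rose was Pf4, which is shared with the platelet list. Tyrobp, the adaptor of activating myeloid receptors, was at -1.90 and -1.75 in GFP- endothelium, against -0.01 and 0.17 in GFP+ endothelium, -0.26 and -0.22 in GFP- clusters and 2.08 and 2.10 in GFP+ clusters (-2.47), and Adgre1, the macrophage antigen F4/80, at -3.40 and -3.28 in GFP- endothelium, against -1.72 and -1.42 in GFP+ endothelium, -1.79 and -1.90 in GFP- clusters and 0.000 and 0.04 in GFP+ clusters (-2.21). In both, GFP+ endothelium and GFP- clusters lay at similar levels between GFP- endothelium below and GFP+ clusters above. The granule enzyme gene Mpo, by contrast, was higher in GFP- than in GFP+ endothelium (0.52) and so inside the range, although lower than in the mean of the others (-2.26). The 6 macrophage markers summed to 2.2 and 2.25 multiples of the 75th percentile in GFP- endothelium, 5.06 and 5.45 in GFP+ endothelium, 4.79 and 5.21 in GFP- clusters and 19.1 and 19.5 in GFP+ clusters. Lyz2 was not above background in GFP- endothelium, where the other 5 (Csf1r, Adgre1, Cx3cr1, Tyrobp and C1qa) were. The 4 blood cell markers (Ptprc, Spn, Coro1a and Laptm5) summed to 2.21 and 2.02 in GFP- endothelium, 2.56 and 2.56 in GFP+ endothelium, 5.85 and 5.8 in GFP- clusters and 22.5 and 22 in GFP+ clusters. Both sums share genes with the blood and macrophage lists (Spn, Tyrobp and Adgre1 among them), so their moving with these lists is no separate result. Their part in the results was not tested.

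Some genes were not well above background in GFP- endothelium, and only a bound against the dimmest other group holds. The costimulatory ligand gene Cd86 was at least 3.18-fold lower than in GFP+ endothelium, the amino acid transporter Slc7a8 at least 2.95-fold and the Ras effector Rassf5 at least 2.4-fold. The macrophage genes Lyz2, lysozyme, and Folr2, a folate receptor, were at least 2.81-fold and 2.67-fold lower than in GFP- clusters, the lectin receptor Clec4e at least 2.33-fold and the nucleotide transporter Slc17a9 at least 2.0-fold. Capsl was at least 2.17-fold lower than in GFP+ endothelium, Themis2 at least 1.91-fold and Irak3, a brake on Toll-like receptor signalling, at least 1.81-fold.

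Interferon-response genes were mostly lower: of 52, 42 fell, 1 rose, Cmpk2 (0.33), and 9 did not pass, with 25 below (48.1%), 0 above and a median of -0.59. The median was -0.76 against GFP+ endothelium, -0.14 against GFP- clusters and -0.86 against GFP+ clusters. These 3 comparisons share the GFP- endothelium arrays. Ifi204 stood at -3.99 and -4.11 in GFP- endothelium, against -2.41 and -2.48 in GFP+ endothelium, -2.74 and -2.64 in GFP- clusters and -0.63 and -0.69 in GFP+ clusters, clear of the others, with a difference of -2.12 ± 0.054 (adjusted p = 1.82e-05). Ifitm1 (-2.22), the immunoproteasome subunit genes Psmb9 (-1.96) and Psmb8 (-1.49), the RNA sensor Ifih1 (-1.17), the GTPase genes Gbp7 (-1.36, above background on 7 arrays) and Irgm2 (-1.07) and the transcription factors Irf1 (-0.69), Irf8 (-0.85) and Irf9 (-0.50) were below all other arrays. Oas2 and Ifi44, also called lower, were not well above background in GFP- endothelium or GFP- clusters. The macrophage marker sums above were also lowest in GFP- endothelium. They were 5.06 and 5.45 in GFP+ endothelium and 4.79 and 5.21 in GFP- clusters. Their part in the result was not tested.

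Immediate early genes gave 13 lower, 4 higher and 7 short of the threshold among 24, with 12 below (50%), 3 above and a median of -0.23. Fos was at 0.29 and 0.26 in GFP- endothelium, against 0.996 and 0.95 in GFP+ endothelium, 0.79 and 0.75 in GFP- clusters and 0.99 and 0.92 in GFP+ clusters, so the other 3 groups lay close together above GFP- endothelium, and the difference was -0.63 ± 0.040 (adjusted p = 0.000258). Klf4 (-0.72), which flow induces in endothelium, was at 0.62 and 0.70 in GFP- endothelium, against 1.89 and 1.90 in GFP+ endothelium, where it was highest. Zfp36, which speeds the decay of inflammatory messages (-1.55, above background on 7 arrays), Fosb (-0.67), Fosl2 (-0.66, and 0.12 by another probe above background on 3 arrays), Myc (-0.58), Nr4a1 (-0.44) and Nr4a2 (-0.60) were below too. Ccn1 (0.43) and Ccn2 (0.34), matrix proteins that respond to mechanical tension, and Ier2 (0.28) were above. Ccn2 did not pass without the first or without the second GFP- endothelium array (adjusted p = 0.0561 and 0.0575).

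**Figure D5:**
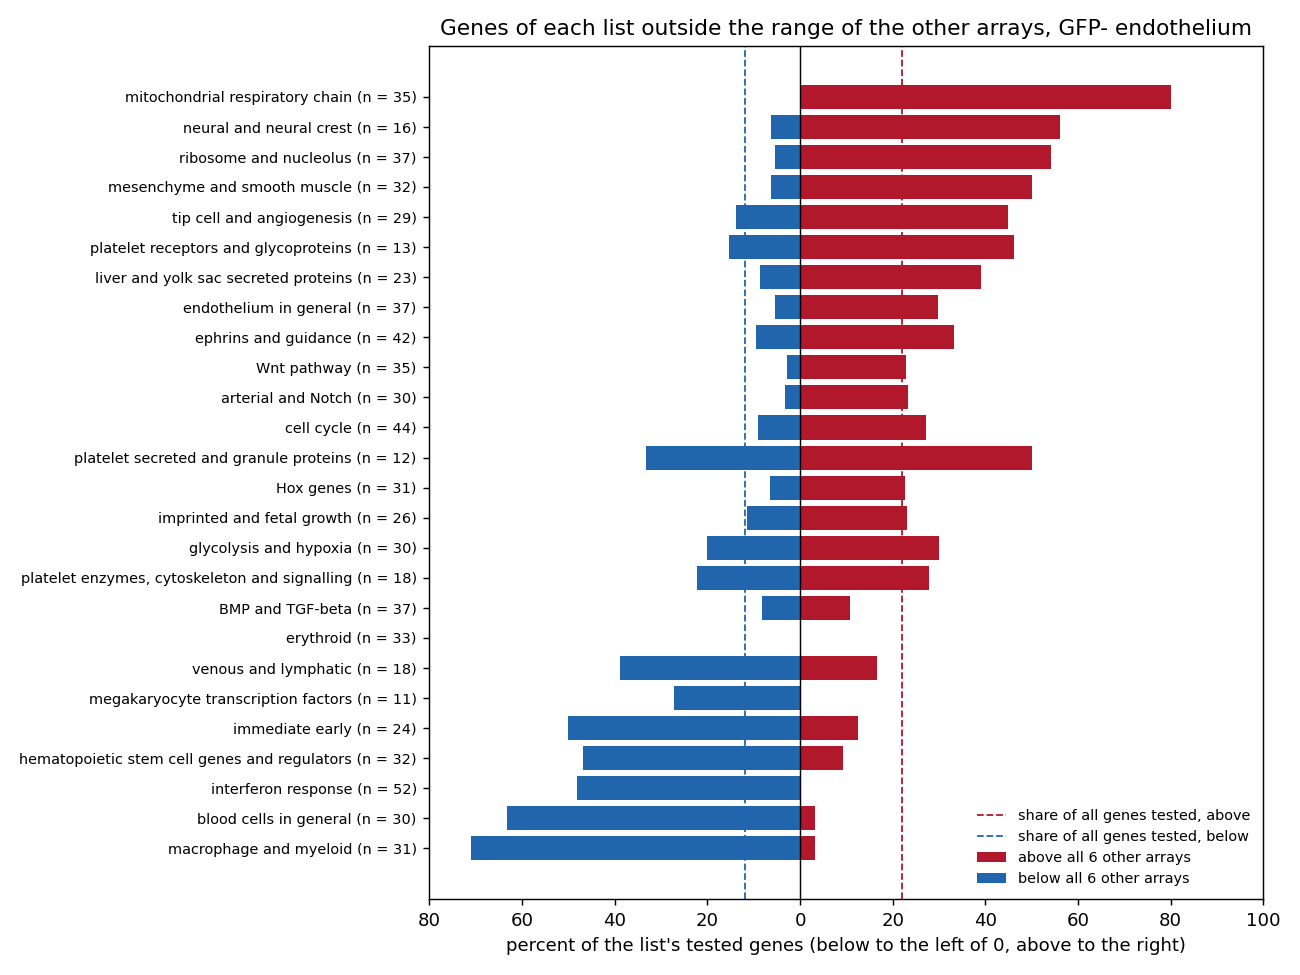
Share of each gene list's tested genes that lay above (right of 0) or below (left of 0) all 6 other arrays in GFP- endothelium, in percent, ordered by the difference of the shares; dashed lines give the shares over all 19501 genes, 22% above and 11.9% below. Respiratory chain genes reach 80% above and macrophage and myeloid genes 71% below, while 0 of 33 erythroid genes lie outside the range.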

How the data were processed

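Cy3 signal of 8 one-colour Agilent arrays was used. Scanner intensity was deposited by the authors, per the file headers background-subtracted by Agilent Feature Extraction (version 10.10.1.1, per the submitters' processing notes). The main values were log2 intensity minus each array's 75th percentile; control spots (43020 others kept, for 39429 probes) and 10 probes flagged as outliers were left out, and the brightest probe stood for each gene. Genes entered the fit if both arrays of any group were well above background (19501 of 31823 gene names). Names came from RefSeq by accession (13929), by current symbol (1172) or stayed as in the files (4400). limma 3.58.1 (R 4.3.3) fitted 4 group means with 4 residual degrees of freedom and Benjamini-Hochberg adjustment. The number of arrays limits the precision.

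Members, gene lists and named genes were chosen with earlier results of these data known. Named genes were the 15 widest called members with a symbol on each side measured on all 8 arrays, the 10 widest bounds on each side, up to 5 called members of each list with the widest differences, the members of the platelet lists, the sort genes and the 3 genes nearest the bound on each side. Other list members were named after their values were seen. The authors' deposited table of intensity values, whose normalization was not given in the sources used here, followed the order of the spots (r of 0.997 to 1 per array) with a median of 198 in every column, and was an alternative. Replicate numbers mark the slide. Deviations of same-numbered arrays correlated at 0.139 to 0.36 over the group pairs, so the numbers pair the arrays. Alternatives changed the background correction, the normalization, the dim-probe filter, the averaging of probes, the slides used, the moderation or the fold threshold, or left out 1 array. Promoters came from RefSeq GRCm38.p6, and probe positions are mm9, the build in the array files. A few genes that the rule names are not reported here.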

Additional observations from a re-analysis of the deposited data

How the results depend on the processing

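With the slide as a replicate block (the replicate numbers pair the arrays by slide), 5978 genes were higher and 3690 lower than the mean of the others, and 11133, 5231 and 10558 were called against GFP+ endothelium, GFP- clusters and GFP+ clusters. No count over all genes moved by over 1.5 times under the block. Leaving out 1 array gave 3463 to 5319 genes higher and 2247 to 3329 lower, and 1605 to 4212 called against GFP- clusters. The lowest of these came without 1 array of GFP- endothelium or of GFP- clusters, and 13 of the genes given with values lost their call without some array, among them the platelet genes Gp1bb, F2rl3, Rasgrp2, Nrgn, Hps4 and Zfpm1. On a single slide 6614 and 6475 genes lay above and 3849 and 3906 below. With no filter on dim probes, 1473 genes were called against GFP- clusters. At 2-fold or more, 174 lay above, 358 below, 224 were called higher and 446 lower, and 1396, 419 and 1598 were called against GFP+ endothelium, GFP- clusters and GFP+ clusters.

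Normexp background correction gave 2077 genes above and 999 below, 9 called higher and 24 lower, and 100, 14 and 407 called against GFP+ endothelium, GFP- clusters and GFP+ clusters. On the second GFP- endothelium array 2 spots had a net signal below -100 (lowest -32200), and no other array had any. Without these 2 spots, an alternative chosen after seeing the data, only the count against GFP- clusters (2738) differed from the main one by over 1.5 times, so the first normexp fit rests on those spots. Under it list medians changed sign for platelet secreted proteins (0.435), platelet enzymes (0.051), the 4 platelet lists together (0.161), endothelium (-0.081), germ cells (0.847), interferon (0.077), cell cycle (-0.153), ribosome (-0.097), glycolysis (-0.057), imprinted genes (-0.179) and the sort genes (-0.112). Genes that turned were Ascl2 (0.469), Bmp6 (0.193), Capsl (0.571), Cdkn2c (0.464), Clec4e (0.204), Ddx4 (0.691), Esam (-0.112), Flt1 (-0.036), Folr2 (0.098), Foxa1 (0.724), Gbp7 (0.521), Hoxa9 (0.087), Ifih1 (0.066), Irak3 (0.35), Irgm2 (0.157), Itga2b (0.485), Lcp1 (-0.104), Lmo2 (-0.117), Lyz2 (0.121), Nrgn (0.334), Pecam1 (-0.021), Psmb9 (0.088), Rasgrp2 (-0.04), Rpl7 (-0.001), Sema3d (0.953), Slc17a9 (0.606), Slit3 (0.336), Themis2 (0.391), Timd4 (0.301) and Zfp36 (0.516).

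Quantile normalization and the authors' deposited table both turned the medians of cell cycle (-0.056), ribosome (-0.002), glycolysis (-0.063), imprinted (-0.084) and germ cell genes (0.069 and 0.064), and Itga2b (0.073 and 0.071). The platelet secreted median became 0.485 over genes well above background on all 8 arrays and 0.065 under normexp without the 2 spots. Itga2b and the germ cell, epithelial and combined platelet medians lay so near 0 that small changes turned them. Itga2b gave 0.054 under normexp without the 2 spots, 0.006 on slide 2 and -0.034 to 0.028 with 1 array left out. The germ cell median gave 0.098 over genes above background on all arrays, 0.139 over the mean of a gene's probes, 0.118 on slide 1, 0.057 under normexp without the 2 spots and -0.127 to 0.12 with 1 array left out. The epithelial median gave -0.017 over genes above background on all arrays, -0.053 on slide 2 and -0.04 to 0.039 with 1 array left out. The combined platelet median ran from -0.047 to 0.006 with 1 array left out.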
